A study of Homo sapiens with 6 samples.

Results

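The genes described here build the mitotic spindle, attach chromosomes to it, compact and separate the chromosomes and cut the cell in 2 at cytokinesis. They are 54 symbols chosen by name, all of which were found among the 43424 gene symbols counted and all of which had enough counts to be tested. RNA was measured in HepG2, an established line of human liver cancer cells with wild-type genotype per the labels, in 3 control cultures and 3 cultures given 10 µM tamarixetin for 24 h. Tamarixetin is an O-methylated form of the flavonol quercetin. The labels state no treatment for the controls and name no vehicle. Cells were grown with 10% serum and moved to 1% serum for the treatment, and whether the controls were moved too is not stated, so that serum and compound cannot be told apart as sources of any difference below.

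As background, a cell enters mitosis when CDK1 bound to cyclin B becomes active, which the CDC25 phosphatases promote. Kinetochores, protein plates on the centromeres, then bind spindle microtubules, and the spindle checkpoint holds the cell until all are attached. The anaphase-promoting complex with its activator CDC20 next marks securin and cyclin B for destruction, so that separase can part the sister chromatids, and a contractile ring divides the cell. Most of these genes are transcribed in G2 and M phase, through promoters with CCAAT boxes and a cell cycle homology region, an element bound by the DREAM and MYBL2-FOXM1 complexes.

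The libraries held 11980585 to 16168855 counts, and each of the 54 genes had at least 86 counts in every library. The kit counts about 1 fragment per transcript at its 3′ end, and values are given in CPM, counts per 1000000 after scaling with TMM factors. The hepatocyte markers written for this check were all present. Their sum ran from 18895 to 19460 CPM in control and from 10736 to 11038 CPM in tamarixetin libraries, and 10 of 10 fell. Of the leukocyte and endothelial markers, CD3E and KDR were at 0 in every library, and PTPRC, CDH5 and VWF stayed under 1 CPM. The 4 endothelial markers summed to 0.878 to 1.42 CPM in control and 1.01 to 1.90 CPM in tamarixetin libraries. The 5 leukocyte markers summed to 899 to 1000.3 CPM and 752 to 808 CPM, nearly all of it LYZ, and the cholangiocyte markers, chiefly KRT19, SOX9 and EPCAM, to 893 to 901 CPM and 725 to 762 CPM. Mitochondrial transcripts held 10.3% to 11.1% of the counts in control and 7.99% to 8.54% in tamarixetin libraries. The part of these shifts in the mitotic genes was not tested.

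Promoters of genes that rose and of genes that fell are shown first, to set the elements described above beside the direction of change. The lines give the 100 bases before the RefSeq start, 5′ to 3′ on the gene's own strand (GRCh38.p14), with capitals for 3 motifs on either strand: the CCAAT box, and TTTGAA and its variant TTCGAA, core forms of the cell cycle homology region. They are the 4 genes that rose and the 4 that fell with the smallest p among those with 1 promoter in the table and at most 30 of these bases in a GENCODE release 29 exon.
CKS2 (rose), chr9:89311095-89311194, plus strand: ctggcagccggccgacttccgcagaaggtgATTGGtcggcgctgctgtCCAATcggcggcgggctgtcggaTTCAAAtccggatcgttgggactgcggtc
CDC20 (rose), chr1:43358881-43358980, plus strand: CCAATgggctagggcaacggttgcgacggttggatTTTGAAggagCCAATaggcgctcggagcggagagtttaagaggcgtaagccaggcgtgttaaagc
NEK2 (rose), chr1:211675622-211675721, minus strand: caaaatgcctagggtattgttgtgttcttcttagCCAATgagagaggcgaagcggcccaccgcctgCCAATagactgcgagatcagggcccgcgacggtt
KIF14 (rose), chr1:200620752-200620851, minus strand: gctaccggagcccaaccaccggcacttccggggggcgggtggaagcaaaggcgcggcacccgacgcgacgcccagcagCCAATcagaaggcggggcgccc
SPC24 (fell), chr19:11155783-11155882, minus strand: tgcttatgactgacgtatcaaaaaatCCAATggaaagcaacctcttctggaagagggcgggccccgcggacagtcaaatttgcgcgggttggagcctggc
KIF11 (fell), chr10:92593030-92593129, plus strand: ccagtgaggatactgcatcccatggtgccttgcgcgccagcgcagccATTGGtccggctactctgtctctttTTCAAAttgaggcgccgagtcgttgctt
SPC25 (fell), chr2:168890431-168890530, minus strand: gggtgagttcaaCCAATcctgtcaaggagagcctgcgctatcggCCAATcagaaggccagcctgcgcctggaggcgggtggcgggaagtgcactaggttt
CKS1B (fell), chr1:154974581-154974680, plus strand: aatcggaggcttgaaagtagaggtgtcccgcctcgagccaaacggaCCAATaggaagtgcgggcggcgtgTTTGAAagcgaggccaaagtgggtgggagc

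All 8 windows hold a CCAAT box, while TTTGAA or TTCGAA is in those of CKS2, CDC20, KIF11 and CKS1B and not in those of NEK2, KIF14, SPC24 and SPC25. The CDK-binding paralogs CKS2 and CKS1B went opposite ways, and their nearest matches lie at like distances from the start. Distances run from the far end of a match on either strand. The TTTGAA match begins 29 bases before the start in CKS2 and 30 bases before it in CKS1B, and the nearest CCAAT match begins 52 and 54 bases before it. In KIF11, which fell, the nearest matches begin 28 and 53 bases before the start. Strand and number differ. The TTTGAA match is on the opposite strand in CKS2 and KIF11 and on the gene's own strand in CKS1B. The nearest CCAAT match is on the opposite strand in KIF11 only, and CKS2 has a further CCAAT match at 70 bases. Of the 54 genes, 46 had a promoter in the table (59 promoters, 250 bases before to 50 after the start). TTTGAA or TTCGAA stood in 36 of these 46 genes (78.3%), against 15.5% of the 10357 tested genes with a promoter and 2 of 35 DNA replication genes. CCAAT stood in 37 of 46 genes (80.4%), against 42.9% of the tested genes. By direction, TTTGAA or TTCGAA was found in 7 of 10 genes that rose, in 13 of 18 that fell and in 16 of 18 that did not pass. CCAAT was found in 9 of 10 that rose, in 14 of 18 that fell and in 14 of 18 that did not pass. In the 100 bases before the start alone TTTGAA or TTCGAA was in 23 of the 46 genes and in 4.46% of tested genes. CCAAT was there in 33 of the 46 genes (71.7%) and in 26.6% of tested genes. A match describes the letters only, and the RefSeq table held no entry for the other 8 genes.

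Across the 54 genes, 11 rose and 20 fell with tamarixetin, and 23 did not pass the test (edgeR's quasi-likelihood test, Benjamini-Hochberg adjusted p of 0.05 over all genes). The share that changed was 57.4%, and 43.7% of the 13198 genes tested changed. The share that rose, 20.4%, was near the 22.4% of all genes tested, while 37.0% of the mitotic genes fell against 21.3% of all. These shares of all genes are the background for the counts by role below. The median log2 fold change was -0.089 over the 54 genes and 0.0004 over all genes tested. The changes were small: the range was -0.67 to 0.50, 2 genes changed by at least 1.5-fold, and none reached 2-fold. With a minimum fold of 1.2 in the test, 2 genes rose and 6 fell. In bulk RNA, fewer cells in mitosis and less of a transcript per mitotic cell cannot be told apart.

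**Figure D1:**
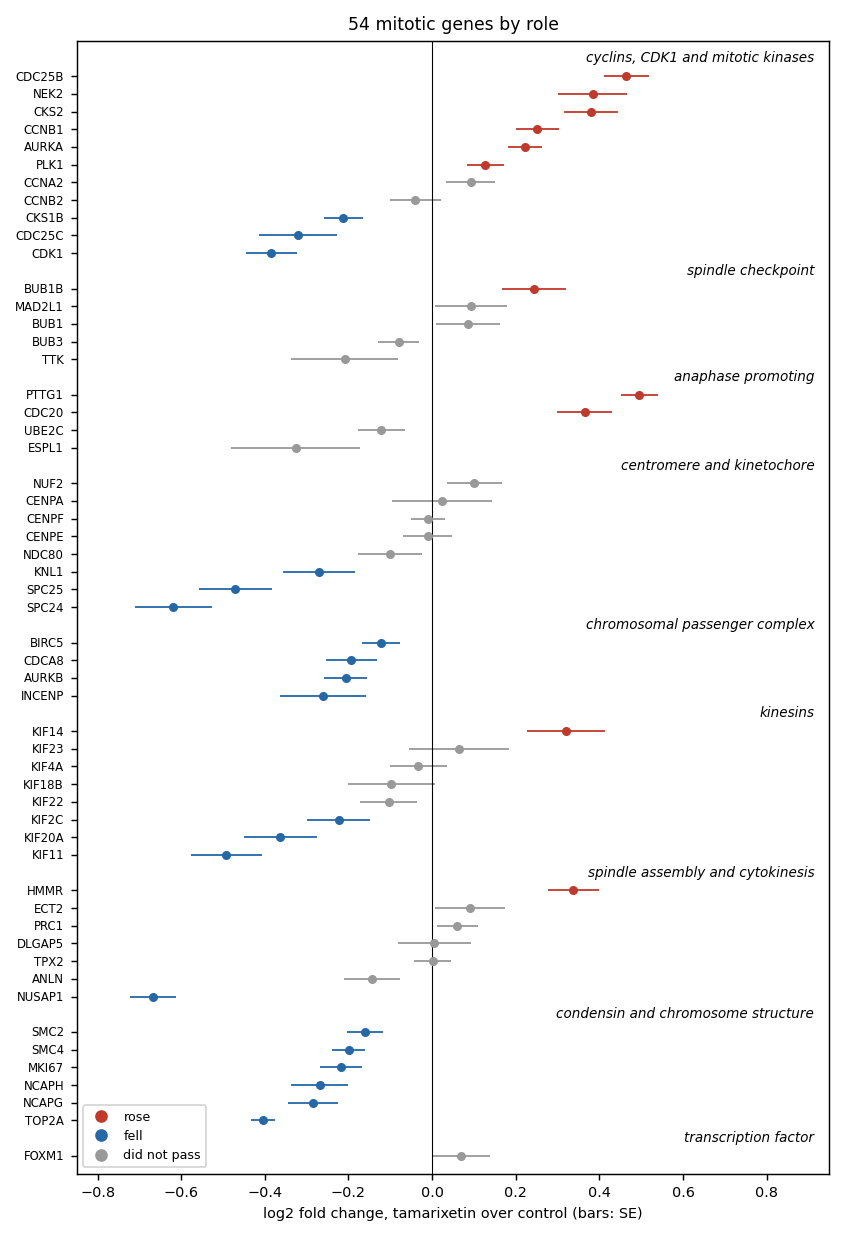
Log2 fold change of tamarixetin over control for the 54 genes, grouped by role on the vertical axis, with bars for the standard error. Red genes rose, blue genes fell and grey genes did not pass; all 6 condensin and chromosome structure genes and all 4 passenger complex genes lie to the left of 0, while 6 of 11 cyclin and kinase genes lie to the right as rises.

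The cyclins, CDK1 and mitotic kinases were divided. Of 11 genes 6 rose and 3 fell. CDC25B, a phosphatase that starts CDK1 activation, stood at 78.7, 76.6 and 77.9 CPM in the control libraries and at 111, 103 and 107 CPM with tamarixetin, a 1.38-fold rise (log2 0.46, SE 0.054, adjusted p = 2.02e-12). Its paralog CDC25C went the other way, from 31.4, 29.01 and 27.6 CPM to 23.9, 25.3 and 21.1 CPM (log2 fold change -0.32, SE 0.093, adjusted p = 0.00278). In both genes the groups did not overlap, which was so in 50.5% of all genes tested (26% with all tamarixetin libraries above and 24.5% with all below). CDC25C overlaps FAM53C in the genome, which rose by 0.21 on the log2 scale, and with the strand setting not given the reads of an overlap can be assigned to either.

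CDK1, the kinase that drives mitotic entry, fell from 73.7, 80.3 and 76.5 CPM to 57.7, 57.8 and 60.9 CPM (log2 -0.39, SE 0.061, adjusted p = 6.85e-08). CCNB1, its cyclin B1 partner, rose from 92.8, 97.2 and 96.0 CPM to 114, 115 and 112 CPM (log2 0.25, SE 0.051). Every tamarixetin library lay under every control library for CDK1 and above every one for CCNB1. The other mitotic cyclins did not pass: CCNB2 had 70.0 ± 4.12 CPM in control and 68.0 ± 4.07 CPM with tamarixetin (SD, n = 3 each), and CCNA2 had 71.8 ± 1.38 and 76.4 ± 3.59 CPM. CCNA2 overlaps EXOSC9, which rose by 0.14.

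AURKA, the centrosomal Aurora kinase that matures spindle poles, rose from 228, 214 and 209.8 CPM to 259.8, 253 and 248 CPM (log2 0.22, SE 0.041, adjusted p = 2.56e-06). NEK2, a kinase that separates centrosomes, rose 1.30-fold (log2 0.38, SE 0.083), and PLK1, the Polo kinase, rose 1.09-fold (log2 0.13, SE 0.043, adjusted p = 0.0114). The PLK1 call was lost without control replicate 1 (log2 0.11, adjusted p = 0.0503), without tamarixetin replicate 2 (0.11, adjusted p = 0.0940) and with upper quartile scaling (0.092, adjusted p = 0.0749). CKS2 rose from 52.4, 47.3 and 53.4 CPM to 63.6, 67.0 and 69.4 CPM, 1.30-fold, while CKS1B fell from 169.7, 168 and 154 CPM to 138, 151 and 134 CPM, 1.16-fold lower. The highest tamarixetin value of CKS1B was just under its lowest control value.

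**Figure D2:**
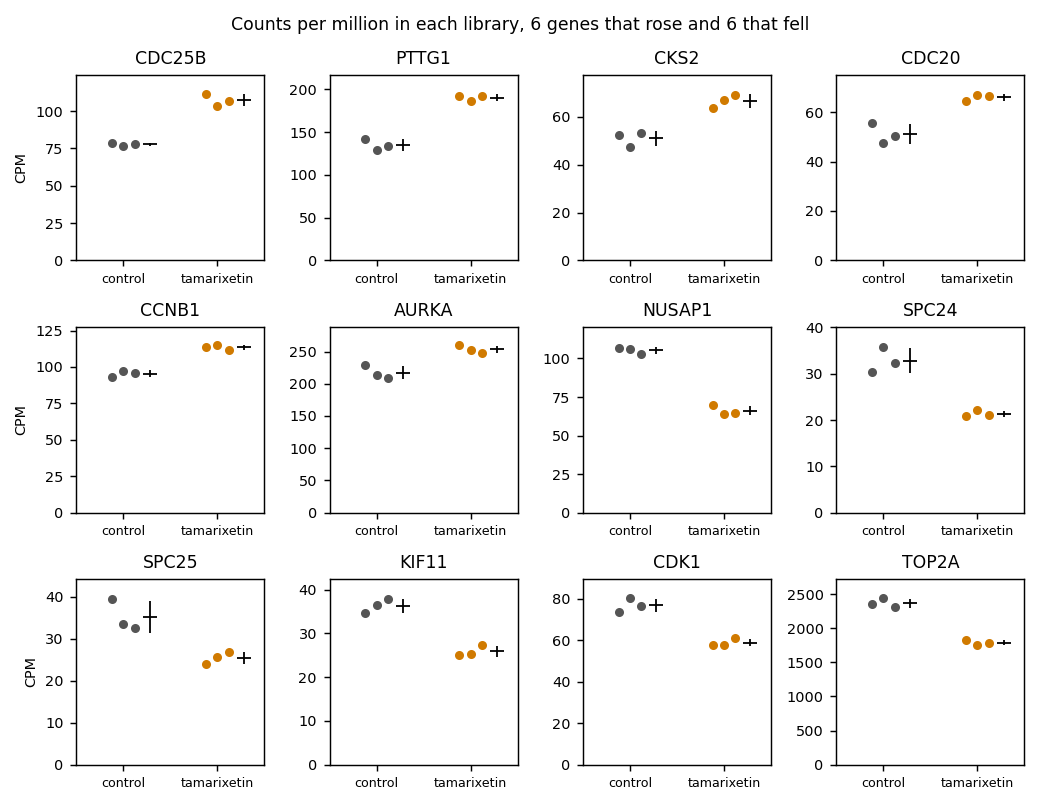
CPM (vertical axis, from 0) in each of the 3 control (grey) and 3 tamarixetin (orange) libraries for 6 genes that rose (CDC25B, PTTG1, CKS2, CDC20, CCNB1, AURKA) and 6 that fell (NUSAP1, SPC24, SPC25, KIF11, CDK1, TOP2A), picked for display after their values were seen; black marks give the mean and SD. The 2 groups do not overlap in any of the 12 panels.

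Of the 4 anaphase genes 2 rose and none fell. PTTG1, which encodes securin, the inhibitor of separase (chromosome 5, 160421855 to 160428744), rose from 142, 129 and 133 CPM to 192, 186 and 193 CPM. This was the largest rise among the 54 genes, 1.41-fold (log2 0.50, SE 0.045, adjusted p = 3.05e-17). The near copies PTTG2 and PTTG3P were under 0.03 CPM in both groups. CDC20, the activator of the anaphase-promoting complex, rose from 55.8, 47.5 and 50.2 CPM to 64.5, 67.1 and 66.6 CPM (log2 0.36, SE 0.066). ESPL1, which encodes separase, had 9.89 ± 1.08 CPM in control and 7.85 ± 1.29 CPM with tamarixetin and did not pass (log2 -0.33, SE 0.154, adjusted p = 0.0779). UBE2C, the ubiquitin-conjugating enzyme of the complex, had 87.5 ± 3.09 and 80.3 ± 1.70 CPM and did not pass (adjusted p = 0.0678). Its copy UBE2CP5 had 5.11 CPM in control and 6.37 CPM with tamarixetin, and reads may be split between them. UBE2C passed as lower with upper quartile scaling, with the filter at 5 CPM and without control replicate 1 (adjusted p = 0.0156, 0.0425 and 0.0427). ESPL1 passed as lower with upper quartile scaling and without tamarixetin replicate 2 (adjusted p = 0.0486 and 0.0258).

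The spindle checkpoint genes moved little, with 1 of 5 called. BUB1B, which encodes the checkpoint protein BUBR1, stood at 36.3, 41.8 and 40.0 CPM in control and 48.7, 42.1 and 48.7 CPM with tamarixetin (log2 0.24, SE 0.076, adjusted p = 0.00559). The lowest tamarixetin library (42.1 CPM) exceeded the highest control (41.8 CPM) by a small margin, and the call was lost without control replicate 1 (adjusted p = 0.0646). BUB3, the shared partner of BUB1 and BUBR1, ran from 119 to 123 CPM in control and from 109 to 118 CPM with tamarixetin, below without overlap, and did not pass (log2 -0.08, adjusted p = 0.187). It passed with upper quartile scaling (adjusted p = 0.0481). The kinase BUB1 (log2 0.09, SE 0.077), MAD2L1, which holds CDC20 inactive (0.09, SE 0.086), and TTK, the kinase that starts checkpoint signalling (-0.21, SE 0.129), did not pass.

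At the centromere and kinetochore, 3 of 8 genes fell (37.5%, against 21.3% of all genes tested) and none rose. The 3 sit in neighbouring complexes. SPC24 and SPC25 encode the pair of subunits that anchor the NDC80 complex to the inner kinetochore. SPC24 fell from 30.4, 35.8 and 32.3 CPM to 20.9, 22.1 and 21.0 CPM, 1.54-fold lower (log2 -0.62, SE 0.092, adjusted p = 1.03e-08). SPC25 fell from 39.4, 33.5 and 32.4 CPM to 23.9, 25.5 and 26.7 CPM, 1.39-fold lower. The microtubule-binding pair of the same complex did not pass. NDC80 had 42.0 ± 3.64 CPM in control and 39.3 ± 2.02 CPM with tamarixetin, and NUF2 had 52.5 ± 3.21 and 56.5 ± 0.911 CPM.

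KNL1, the scaffold that recruits the checkpoint kinase BUB1, fell from 40.4, 35.3 and 32.0 CPM to 29.6, 28.6 and 31.1 CPM (log2 -0.27, SE 0.085, adjusted p = 0.00631). The call was lost without control replicate 1, the highest library (log2 -0.18, adjusted p = 0.121). CENPF, a large outer kinetochore protein, ranged from 247 to 282 CPM in control and from 261 to 272 CPM with tamarixetin. CENPE, a kinetochore motor, had 74.3 ± 1.60 and 73.7 ± 0.439 CPM. CENPA, the centromeric histone, had 17.1 ± 3.18 and 17.7 ± 3.25 CPM. In these 3 genes the groups overlapped and the fitted log2 fold changes lay between -0.01 and 0.02.

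All 4 genes of the chromosomal passenger complex fell, by small amounts, while 21.3% of all genes tested fell. The complex corrects faulty attachments and steers cytokinesis. AURKB, its Aurora kinase, stood at 117, 107 and 117 CPM in control and 101, 101 and 94.6 CPM with tamarixetin (log2 -0.21, SE 0.052, adjusted p = 5.21e-04). BIRC5, which encodes survivin, stood at 175, 184 and 173 CPM against 169.96, 163 and 154 CPM (log2 -0.12, SE 0.045). CDCA8, which encodes borealin, stood at 84.9, 73.3 and 81.2 CPM against 74.0, 70.6 and 64.7 CPM (log2 -0.19, SE 0.060), and this is the only called gene of the 54 whose groups overlapped. INCENP, the scaffold, had 23.6 ± 2.76 and 19.7 ± 0.949 CPM (log2 -0.26, SE 0.102). Only AURKB kept its call without any 1 library. The BIRC5 call was lost without control replicate 2 (adjusted p = 0.0956), without tamarixetin replicate 2 (0.0610) or 3 (0.168) and with scaling by library size alone (0.106). The CDCA8 call was lost without control replicate 1 (0.0574) or tamarixetin replicate 3 (0.0765). The INCENP call was lost without control replicate 2 (0.215) and tamarixetin replicate 1 (0.106) or 2 (0.0769), in DESeq2 (0.0642), with library size scaling (0.0633) and without the filter on low counts (0.0544).

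Among the 8 kinesins, motors that move along or take apart spindle microtubules, 3 fell and 1 rose. Of all genes tested 21.3% fell and 22.4% rose. KIF11, which pushes spindle poles apart, fell from 34.7, 36.4 and 37.9 CPM to 25.1, 25.3 and 27.3 CPM (log2 -0.49, SE 0.085, adjusted p = 7.04e-07). KIF20A, a motor of the central spindle, fell from 31.5, 33.6 and 34.4 CPM to 25.8, 25.8 and 25.6 CPM (log2 -0.36, SE 0.087). KIF20A overlaps CDC23, which did not pass (log2 -0.087). KIF14, a midbody motor, rose from 20.7, 24.1 and 24.3 CPM to 27.6, 28.8 and 29.9 CPM (log2 0.32, SE 0.093, adjusted p = 0.00293). In each of these 3 motors the groups were apart, as they were in 50.5% of all genes tested. KIF2C, a microtubule depolymerase at centromeres, stood at 45.1, 49.2 and 46.5 CPM against 35.3, 42.2 and 43.3 CPM (log2 -0.22, SE 0.076), and its call was lost without control replicate 2 (adjusted p = 0.0588) or tamarixetin replicate 1, the lowest library (log2 -0.13, adjusted p = 0.216). KIF4A, a motor bound to chromosome arms, had 61.6, 59.8 and 51.7 CPM against 60.1, 51.7 and 56.9 CPM, with overlap. It did not pass, nor did KIF18B, KIF22 and KIF23, with log2 fold changes from -0.10 to 0.064.

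The spindle assembly and cytokinesis genes held the largest fall of the 54 beside a rise. NUSAP1, which bundles microtubules near chromosomes (chromosome 15, 41332881 to 41381046), fell from 107, 106 and 103 CPM to 69.5, 64.0 and 64.9 CPM. This is 1.59-fold lower (log2 -0.67, SE 0.056, adjusted p = 3.07e-19). HMMR, a spindle pole protein and hyaluronan receptor, rose from 64.3, 60.1 and 57.0 CPM to 80.1, 75.7 and 73.0 CPM (log2 0.34, SE 0.061). The other 5 did not pass. TPX2, which activates AURKA on the spindle, had 217, 228 and 199.8 CPM in control and 215, 228 and 200.3 CPM with tamarixetin (log2 0.0015, SE 0.044). DLGAP5, PRC1 and ECT2 had log2 fold changes of 0.0052, 0.061 and 0.090. ANLN, the anillin of the contractile ring, had 56.6 ± 2.27 and 51.1 ± 1.48 CPM without overlap (log2 -0.14, adjusted p = 0.0745), and it passed with upper quartile scaling (0.0227).

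Every gene of condensin and chromosome structure fell, 6 of 6, and in each the groups were apart. Among all genes tested 21.3% fell, and in 24.5% all tamarixetin libraries lay below all controls. TOP2A, the topoisomerase that untangles sister chromatids (chromosome 17, 40388525 to 40417896), fell from 2352, 2440 and 2306 CPM to 1823, 1758 and 1783 CPM, 1.32-fold lower (log2 -0.40, SE 0.029, adjusted p = 5.13e-23). SMC4, a condensin ATPase, fell from 304, 304 and 293 CPM to 259, 262 and 263 CPM (log2 -0.20, SE 0.038). NCAPG, a subunit of condensin I, fell from 80.7, 74.8 and 81.6 CPM to 65.9, 61.9 and 67.1 CPM (log2 -0.29, SE 0.060). These libraries show a narrow spread within each group. SMC2, NCAPH and MKI67, the Ki-67 protein that coats mitotic chromosomes, fell by 0.16, 0.27 and 0.22 on the log2 scale. All 6 calls were kept without any 1 library, though MKI67 was at -0.14 without control replicate 1, its highest library (adjusted p = 0.0198). NCAPG overlaps LCORL, which did not pass (log2 -0.013).

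FOXM1, the transcription factor that activates many of these genes, stood at 51.8, 60.9 and 48.9 CPM in control and 57.0, 56.4 and 55.3 CPM with tamarixetin. The tamarixetin libraries lay inside the control range, and the gene did not pass (log2 0.069, SE 0.069, adjusted p = 0.443). Its sign turned without control replicate 3 (-0.0024). FOXM1 overlaps RHNO1, which fell by 0.27.

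TOP2A weighed on the total. It took 35.1% to 36.1% of the counts of the 54 genes in control and 29.4% to 30.1% in tamarixetin libraries. The 54 genes summed to 6484 to 6752 CPM in control and 5948 to 6055 CPM with tamarixetin, and without TOP2A to 4178 to 4342 CPM and 4165 to 4232 CPM. The first pair of ranges was apart and the second overlapped.

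Ratios within 10 pairs of paralogs or subunits of 1 complex were compared in each library, as log2 CPM of one gene minus that of the other. With 3 libraries against 3 the exact permutation test cannot go below p = 0.1 (two-sided), so no pair can pass, and p adjusted over the 10 pairs was at least 0.25. In 4 pairs the groups were apart, each at the smallest p of the exact permutation test. The CDC25, CKS and Aurora pairs hold genes already called in opposite directions, so their ratios are not separate support. The ratio of CCNB1, already called higher, over CCNB2, which did not pass, is not separate support either. CDC25B over CDC25C went from 1.39 ± 0.085 to 2.17 ± 0.156, a difference of 0.78. CKS1B over CKS2 went from 1.67 ± 0.149 to 1.07 ± 0.115 (-0.60), AURKA over AURKB from 0.93 ± 0.083 to 1.36 ± 0.038 (0.43) and CCNB1 over CCNB2 from 0.44 ± 0.064 to 0.74 ± 0.072 (0.29; SD, n = 3 each). The ratio within the condensin ATPases SMC2 and SMC4 differed by 0.040 and overlapped between groups, as did NCAPG over NCAPH (-0.013), SPC24 over SPC25 (-0.15), NDC80 over NUF2 (-0.20), BUB1 over BUB1B (-0.16) and KIF20A over KIF23 (-0.45).

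**Figure D3:**
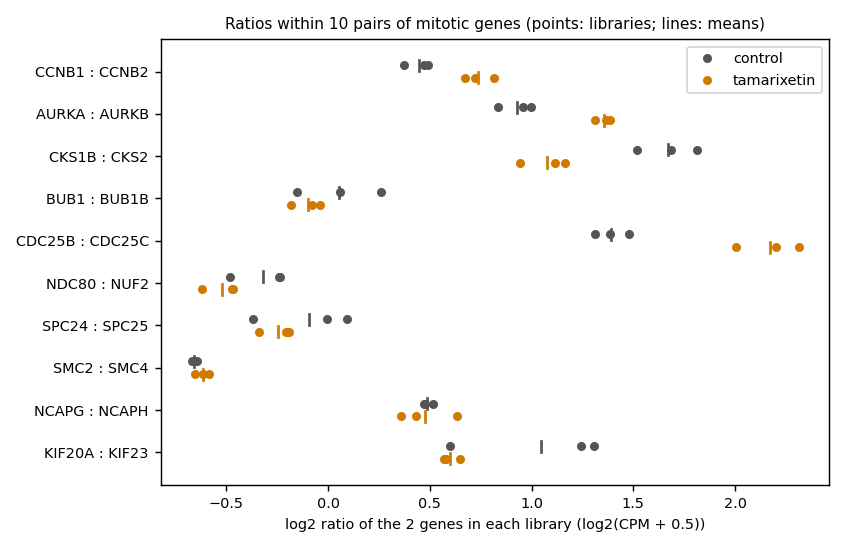
Log2 ratio of 2 genes (horizontal axis, from log2(CPM + 0.5)) in each control (grey) and tamarixetin (orange) library for 10 pairs, with lines at the group means. The groups are apart for CCNB1 and CCNB2, AURKA and AURKB, CKS1B and CKS2, and CDC25B and CDC25C, and overlap in the other 6 pairs.

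A further list of 130 genes of mitosis was read from the same test. Of 129 tested, 12 rose and 43 fell, and the median log2 fold change was -0.12. The share that changed, 42.6%, was near the 43.7% of all genes tested. By direction, 9.30% rose and 33.3% fell, against 22.4% and 21.3% of all genes tested. FBXO5, which encodes EMI1, the inhibitor of the anaphase-promoting complex, had the largest fall, from 37.0 ± 2.55 to 18.9 ± 1.34 CPM (log2 -0.96, SE 0.091, adjusted p = 3.19e-16). The subunits of that complex and its other regulators moved less: of 16 tested, CDC16 (0.31) and CDC27 (0.18) rose and FZR1 (-0.41) fell beside FBXO5. Cohesin and its guardians fell in 7 of 12 and rose in none, with RAD21 (-0.20) and SMC3 (-0.21), parts of the ring that holds sister chromatids, and CDCA5 (-0.32), which encodes sororin, among them. Of the 4 further condensin subunits, NCAPD2 (-0.30) and NCAPD3 (-0.25) fell.

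Nearer the kinetochore, CENP proteins and CENPA loaders fell in 7 of 17 with 1 rise, CENPW (0.14). CENPC (-0.55), which links CENPA chromatin to the outer plate, CENPU (-0.35) and CENPQ (-0.31) fell. In the MIS12, SKA and RZZ group 5 of 16 fell and 3 rose. DSN1 (-0.47), ZWINT (-0.58) and SKA2 (-0.29) fell, and ZWILCH (0.43), KNSTRN (0.34) and TRIP13 (0.30) rose. DSN1 belongs to the MIS12 complex, on which the SPC24 and SPC25 subunits dock. Its other subunits were mixed: PMF1 fell (-0.37), and MIS12 (0.18) and NSL1 (-0.051) did not pass.

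Spindle and centrosome genes fell in 9 of 27 and rose in 2. STMN1, a microtubule destabiliser, fell from 431 ± 8.05 to 309 ± 2.81 CPM (log2 -0.48, SE 0.037), HAUS4, an augmin subunit, by 0.48 and KIF15 by 0.40 on the log2 scale, while the γ-tubulin gene TUBG1 rose by 0.24 and HAUS6 by 0.23. The group listed under cytokinesis also holds genes of other roles, such as LMNB1, MELK and PBK. It was divided, with 4 of 13 higher and 3 lower. CEP55 (0.45), DEPDC1 (0.39) and PBK (0.22) rose, and LMNB1 (-0.45), MELK (-0.55) and KIF20B (-0.12) fell. Of mitotic entry regulators, ENSA (-0.30) and CCNF (-0.45) fell among 10. In the group of DREAM, MYBL2 and NF-Y genes 6 of 14 fell, among them MYBL2 (-0.40) and RBBP4 (-0.37), and none rose. Of the NF-Y genes, which encode the factor that binds CCAAT, NFYC (-0.37) and NFYA (-0.35) fell. NFYB (-0.044) did not pass.

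DNA replication genes, the neighbouring programme of the cell cycle, fell in 27 of 40 and rose in 2, with a median log2 fold change of -0.35. These are 67.5% and 5% of the list, against 21.3% lower and 22.4% higher among all genes tested. The mitotic genes thus had the smaller shift of the medians, -0.089 against -0.35; the difference between the lists was not tested. The mean log2 CPM of the replication genes ran from 5.39 to 5.44 in control and from 5.05 to 5.06 with tamarixetin, and that of the 54 mitotic genes from 5.99 to 6.02 and from 5.94 to 5.96.

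**Figure D4:**
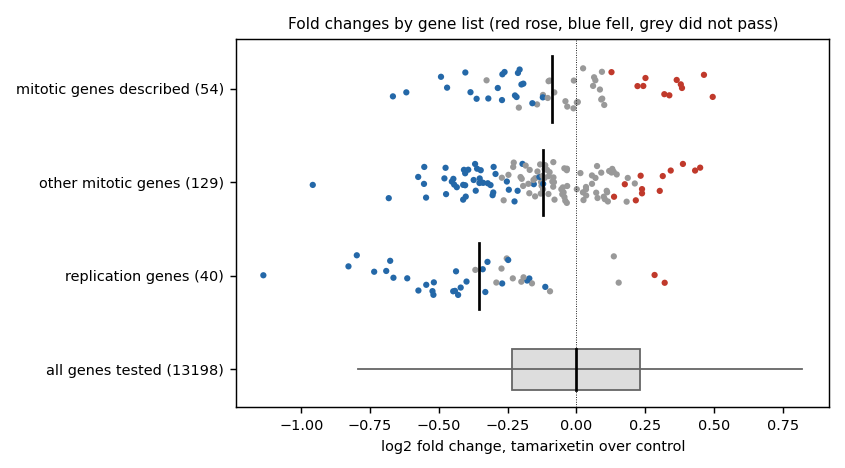
Log2 fold change (horizontal axis) of each gene in 3 lists, with jitter on the vertical axis and black lines at the medians; the box for all 13198 genes tested spans the middle 50% of genes and its line the 5th to the 95th percentile. The 54 mitotic genes have their median at -0.089 with points on both sides of 0, the 129 other mitotic genes at -0.12 and the 40 replication genes at -0.35.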

How the data were processed

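Per the labels' protocols, the 6 libraries are Lexogen QuantSeq 3′ forward libraries. The submitters' processing notes name fastp 0.23.1, STAR 2.7.10b, featureCounts 2.0.6 and GRCh38. For the annotation release, the strand setting and molecular identifiers, details were not given in the sources used here. Each library has 1 deposited table of raw read counts by gene symbol, which the authors did not normalise. The labels call the samples biological replicates. The p-values set the group difference against the spread between these cultures, estimated with information shared across genes.

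The 54 genes and all lists were chosen with earlier results of these data known. Counts were tested in edgeR 4.0.16 (R 4.3.3) after filterByExpr and TMM scaling, with a quasi-likelihood F test on group. Benjamini-Hochberg adjustment covered 13198 genes, with a threshold of 0.05. The SE of a log2 fold change is its size over the root of F. CPM uses TMM-adjusted library sizes, and pair ratios add 0.5 CPM. In each role group, genes given by library are up to 3 of smallest p in each direction and the gene of highest mean CPM. CCNB1 was added for its role beside CDK1, after its values were seen. Of the other mitotic genes the rule takes up to 3 of smallest p per role and direction. Promoters came from RefSeq (GRCh38.p14), matched by symbol, with exons from GENCODE release 29. DESeq2 1.42.0 and limma-voom (limma 3.58.1) were alternatives. No library was a copy of another: the chi-square per gene within groups was 2.35 to 3.53, above sampling noise.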

Additional observations from a re-analysis of the deposited data

How the results depend on the processing

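Scaling by DESeq2 size factors, library size or upper quartile, other filters, DESeq2, limma-voom and an adjusted p of 0.01 each left 10 to 11 of the 54 genes higher and 17 to 24 lower, and the median log2 fold change between -0.12 and -0.054. A minimum fold of 1.2 ended most calls: 2560 genes in all passed, with 2 of the 54 higher and 6 lower, and 2 of the other mitotic genes higher and 14 lower. The 8 that kept their call were CDC25B, PTTG1, CDK1, SPC24, SPC25, KIF11, NUSAP1 and TOP2A. Without 1 library at a time, 9 to 11 of the 54 were higher and 17 to 20 lower, the median ran from -0.11 to -0.058, other mitotic genes were higher in 8 to 11 and lower in 38 to 45, and 5155 to 5367 genes were called in all. With the replicate block 11 of the 54 were higher and 20 lower, as without it, and all 31 calls were kept. The labels do not say that replicate numbers pair cultures, so the numbers were not read as pairs. Deviations from the group means correlated at -0.017 to 0.0052 between same-numbered libraries over 10123 genes. Between libraries of unlike number the correlations were -0.012 to 0.025.

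The sign turned under some alternative only in genes that did not pass. TPX2 turned to -0.0012 with DESeq2 size factors, -0.034 with upper quartile scaling, -0.0063 with the filter at 5 CPM, -0.0016 with the replicate block and -0.0022 in DESeq2. With library size alone CENPE was 0.024, CENPF 0.026 and KIF4A 0.0016. With upper quartile scaling CENPA was -0.011 and DLGAP5 -0.030; DLGAP5 was -0.0029 with the filter at 5 CPM and CENPA -0.00015 in limma-voom.

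Without 1 library at a time the log2 fold change ran from -0.075 to 0.022 in CENPF, -0.11 to 0.027 in KIF4A, -0.11 to 0.18 in CENPA, -0.057 to 0.29 in KIF23, -0.087 to 0.0066 in CCNB2, -0.010 to 0.13 in BUB1, -0.053 to 0.048 in TPX2, -0.11 to 0.060 in DLGAP5, -0.0024 to 0.16 in FOXM1 and -0.0026 to 0.18 in MAD2L1. The difference in the ratio of NCAPG over NCAPH ran from -0.092 to 0.047. Outside the minimum fold and the stricter threshold, 24 of the 31 calls held in all 14 alternatives.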
